A study of Equus caballus with 40 samples.

Results

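The genes described here are 35 genes of the hypoxia response and of glycolysis, out of 16661 genes that the array names by a single symbol. They were picked by gene symbol in the platform annotation, a rule that uses no measured value. The list itself was chosen with earlier results of these data known. All 35 were measured, each by 1 probe set, and none was removed for a low signal. They fall into 15 glycolytic enzymes, 3 regulators of glycolytic flux, 3 transporters, 4 genes of the hypoxia-inducible factor (HIF) pathway and 10 HIF target genes.

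Chondrocytes of the horse were kept in 3D pellets, in which such cells surround themselves with their own matrix. Every pellet other than the controls was first held for 48 h in IL-1β (interleukin-1β, recombinant equine protein at 5 ng/ml), which drives inflammation in joints. These pellets then went on with IL-1β alone, or with IL-1β together with AES (autologous equine serum), a treatment labelled AES24h, or ACS (autologous conditioned serum), while the control pellets never received IL-1β. Harvests at 2 h and 48 h gave 10 groups of 4 arrays, or 40 arrays. Thus the 2 h harvest of the IL-1β group already had the full pre-stimulation behind it. Neither animal ages, the oxygen level, serum doses nor the meaning of AES24h stand in the labels, and 1 pellet per group was homogenised. Whether the 4 replicates came from separate horses or separate cultures is not stated, and every p-value therefore rests on the spread of these arrays alone, part or all of which may be technical.

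Cartilage has no blood vessels, and chondrocytes live at low oxygen and make most of their ATP by glycolysis. When oxygen is scarce, the prolyl hydroxylases encoded by EGLN1 and EGLN3 no longer mark the HIF alpha subunits for degradation, and the stabilised subunits switch on glucose transporters, glycolytic enzymes, pH regulators and angiogenic factors. HIF1A encodes HIF-1α, and EPAS1 encodes HIF-2α, which in mouse cartilage is known as an activator of matrix-degrading enzymes. Control of the alpha subunits lies largely in protein stability, which an RNA array does not see.

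Values are log2 expression values per probe set, and a difference of 1 is a doubling. A gene is said to have risen or fallen only where limma's adjusted p over all 30559 probe sets was under 0.05. Array medians lay between 4.35 and 4.59, correlations between arrays of the same group ran from 0.962 to 0.984 over the probe sets, and 0 of 780 pairs of arrays were identical. Of 9 chondrocyte markers 8 lay above every array median in every group, COL2A1 among them, and MATN3 (2.95 to 3.75) did not. Leukocyte markers did so for 1 of 6 (CD68), red cell and platelet markers for 1 of 4 (PPBP), endothelial markers for 0 of 5 (group means 2.12 to 4.06), adipocyte and muscle markers for 2 of 5 and bone markers for 2 of 3 (SP7 and IBSP). Among the genes described here, PFKFB4 lay below every array median in 7 of the 10 groups and ANKRD37 in 9, so neither was shown to be above background there. In a bulk pellet, fewer cells of a type and less RNA per cell cannot be told apart.

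A feature of the arrays bears on the results that follow. The arrays that carry replicate number 1 in their titles held the highest value of most of these genes. Over the 10 groups, all 35 genes were higher on average in the arrays numbered 1 than in their group means, by a median of 0.35, against −0.04 for all probe sets. Bright probe sets leaned the same way. The upper 25% by mean signal, which held 29 of the 35 genes, had a median of 0.06, with 60.7% of them higher. Of the 35 genes, 16 (45.7%) were highest in the array numbered 1 in at least 8 of the 10 groups. The same held for 3.27% of all probe sets, 5.27% of the upper 60% by mean signal and 9.11% of the upper 25%. For arrays numbered 2, 3 and 4 the count was 0 of 35 each time. That count covers highest values only, and the lowest values of some genes also went with a number. EPAS1 was lowest in the array numbered 2 in 9 of 10 groups (mean deviation −0.59). ADM was lowest in that numbered 3 in 8 groups (−0.50) and KDM3A in that numbered 4 in 8 (−0.25).

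The glucose transporters showed it in nearly every group. SLC2A1, which encodes the basal transporter GLUT1, was highest in the array numbered 1 in 10 of 10 groups, on average 0.76 above the group mean. SLC2A3, which encodes the high-affinity transporter GLUT3, was highest there in 9 of 10 groups. Its mean over the groups was 8.27 in the arrays numbered 1 and 6.50, 6.44 and 6.55 in those numbered 2, 3 and 4. EGLN3 (0.81 above the group mean), CA12 (1.03) and VEGFA (0.71) behaved alike, as did the enzymes LDHA (0.40), PGAM1 (0.45) and TPI1 (0.44). At the other end PFKFB4 (0.00), BNIP3L (0.09), NDRG1 (0.10) and PFKM (0.11) hardly differed.

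**Figure D1:**
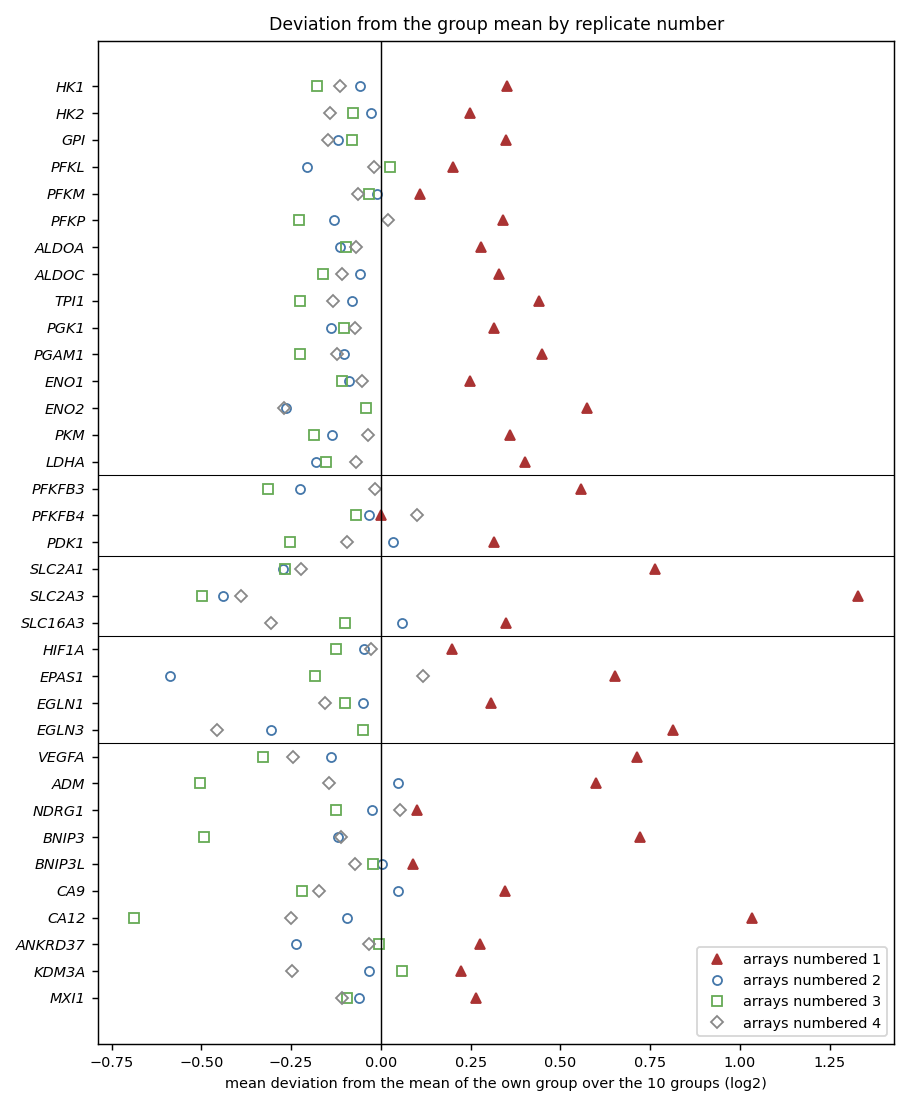
Mean deviation of each of the 35 genes from the mean of its own group over the 10 groups (log2, horizontal axis), for arrays numbered 1 (filled triangles), 2 (circles), 3 (squares) and 4 (diamonds); lines part the 5 roles in the order enzymes, flux regulators, transporters, HIF pathway and HIF targets. The arrays numbered 1 lie right of 0 for all 35 genes, farthest for SLC2A3 at 1.33.

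Other lists differed in this respect. Of 21 genes of pyruvate entry and the citric acid cycle 15 were higher on average in the arrays numbered 1, with a median of 0.07, and of 5 pentose phosphate genes 4 were, with a median of 0.18. Of 18 other glycolysis genes, which are tissue isoforms and further transporters, 7 were higher there, with a median of −0.12. Of 28 other HIF pathway genes and targets 19 were higher, with a median of 0.06, and of 9 chondrocyte markers 4 were, with a median of −0.17. Values were spread more widely in the arrays numbered 1, whose interquartile range ran from 3.29 to 3.49 and was the widest of its group in 6 of 10 groups. After quantile normalisation was applied again, which makes the distributions equal, 15 of the 35 genes (42.9%) were still highest there in at least 8 groups, against 2.76% of all probe sets. What the number stands for is not given in the labels. Values without these arrays stand beside several of the results.

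These genes also varied more within groups than the typical probe set. The median pooled SD within groups was 0.38 for the 35 genes and 0.27 for all probe sets. It was 1.06 for SLC2A3, 0.92 for CA12 and 0.86 for EGLN3, and 0.18 for PFKM.

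IL-1β against control asked how the cytokine moved these genes. At 2 h, 1 of the 35 genes rose, EPAS1, and none fell, a count of 1 against a background of 4.52 percent of all probe sets called in that comparison. At 48 h none was called, where 1.26 percent of all probe sets were. At an unadjusted p under 0.05 the counts were 4 of 35 at 2 h, with 14.1 percent of all probe sets, and 3 of 35 at 48 h, with 9.83 percent. The median log2 fold change of the 35 genes was −0.05 at 2 h and −0.01 at 48 h, and that of all probe sets 0.04 at both times. Both medians of the 35 genes turned positive after repeated quantile normalisation (0.03 and 0.02).

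Of the HIF pathway genes, EPAS1 had values of 5.58, 4.70, 4.99 and 5.22 in the control arrays at 2 h and 7.72, 6.67, 7.01 and 6.76 in the IL-1β arrays, listed here and below in the order of the replicate numbers. Every IL-1β array lay above every control array. The means were 5.12 ± 0.37 and 7.04 ± 0.48 (SD, n = 4 each), a log2 fold change of 1.92 (SE 0.39, 95% interval 1.13 to 2.71, limma adjusted p = 0.00136). The rise was called in all 8 fits that left out 1 of these arrays (adjusted p up to 0.0111) and was 1.85 without all arrays numbered 1.

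At 48 h EPAS1 stood at 6.33, 5.36, 5.01 and 5.30 in control and at 7.08, 6.42, 6.77 and 6.86 with IL-1β. The groups again did not overlap, although the control array numbered 1 came close to the lowest IL-1β array. The log2 fold change of 1.28 (SE 0.39, 95% interval 0.49 to 2.07) did not pass (limma adjusted p = 0.118). Without the arrays numbered 1 it was 1.46 and passed (adjusted p = 0.0418). It missed the threshold in all 8 fits that left out 1 array (limma adjusted p up to 0.291). Leaving out any other replicate number in every group did not make it pass. With the replicate number fitted as a block it was called (limma adjusted p = 3.75e-05). The difference of the IL-1β effect between 48 h and 2 h was tested for every gene, and 0 of 35 passed (0 also at an unadjusted p under 0.05 in limma, against 5.39 percent of all probe sets, of which 0.00327 percent were called).

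HIF1A stayed within the spread of its replicates. Its values at 2 h were 11.02, 11.43, 11.26 and 11.11 in control and 11.55, 11.54, 11.16 and 11.00 with IL-1β. At 48 h they were 11.06, 11.25, 11.02 and 11.37 and 11.48, 11.21, 11.13 and 11.17. The groups overlapped at both times, with log2 fold changes of 0.10 (95% interval −0.25 to 0.45) and 0.07 (−0.28 to 0.42). For the hydroxylases, EGLN1 was at 0.28 and 0.07 and EGLN3 at 0.70 and −0.11, none of which passed.

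**Figure D2:**
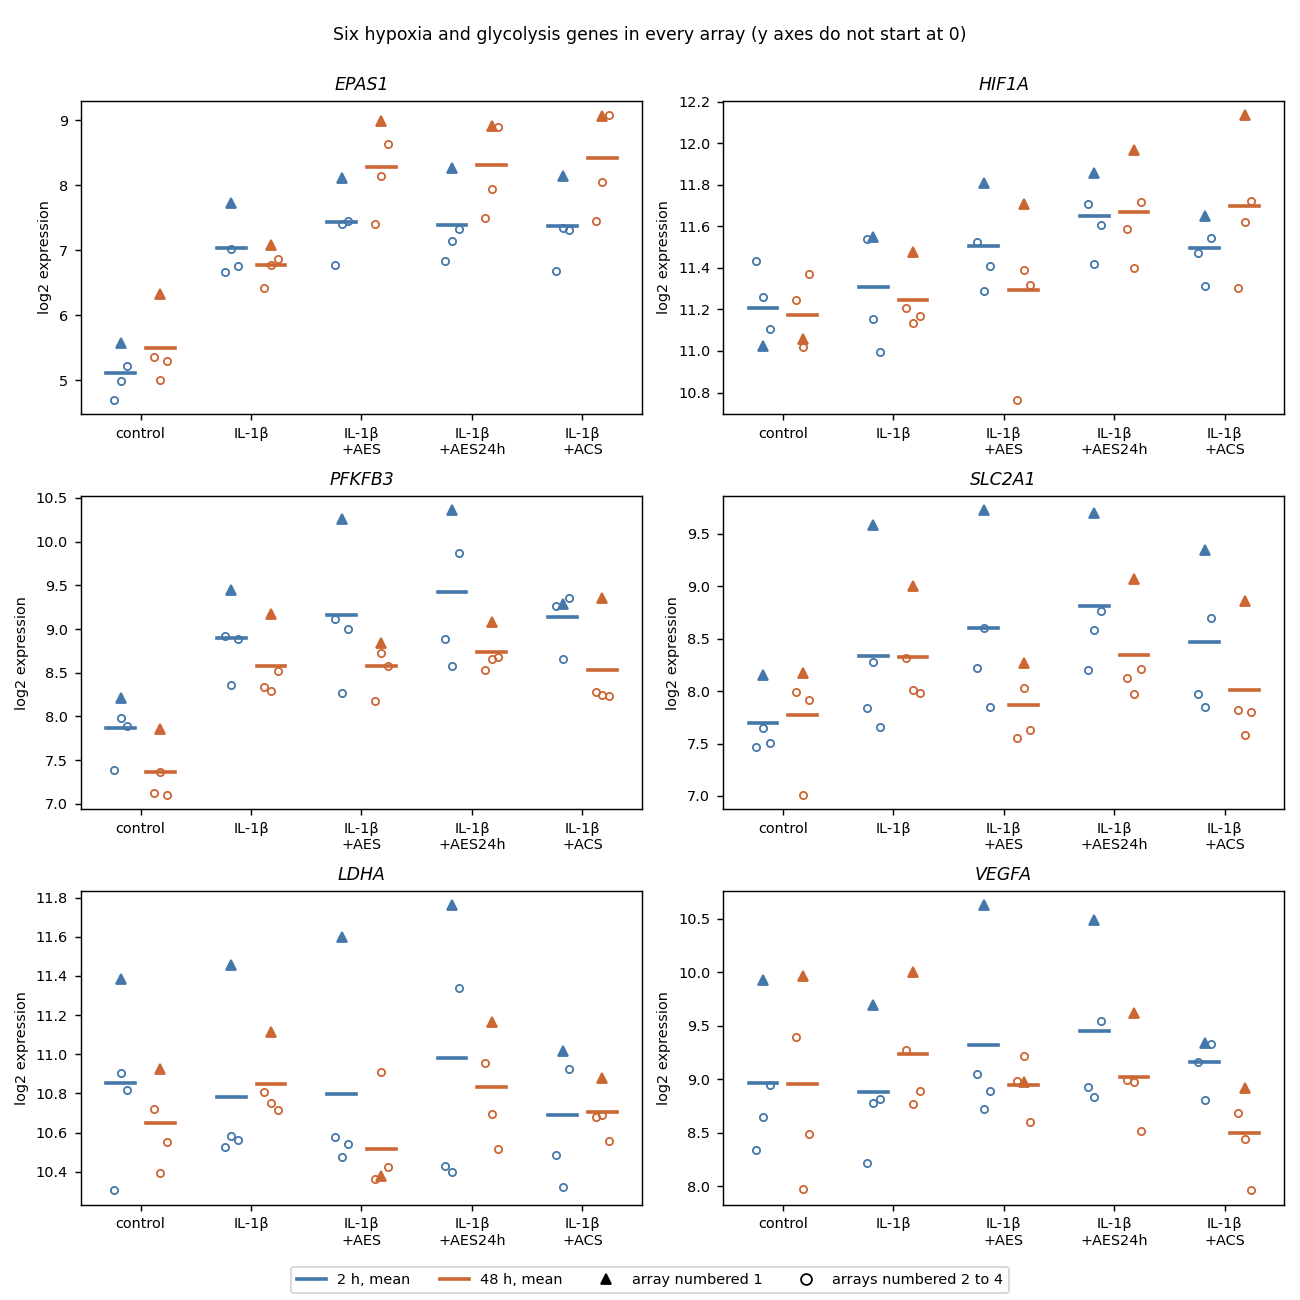
Log2 expression of EPAS1, HIF1A, PFKFB3, SLC2A1, LDHA and VEGFA in every array (vertical axes, which do not start at 0), by treatment, at 2 h (blue) and 48 h (orange); bars are means of 4 arrays, triangles the arrays numbered 1 and circles the others. EPAS1 means run from 5.12 in control at 2 h to 8.41 with ACS at 48 h, and the triangle tops SLC2A1 in all 10 groups.

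Among the flux regulators, PFKFB3 makes fructose 2,6-bisphosphate, the strongest activator of phosphofructokinase, and is known as both a HIF target and an inflammatory response gene. Its values at 2 h were 8.21, 7.39, 7.98 and 7.89 in control and 9.45, 8.92, 8.36 and 8.88 with IL-1β. At 48 h they were 7.85, 7.12, 7.37 and 7.10 in control and 9.17, 8.34, 8.29 and 8.52 with IL-1β. No IL-1β array overlapped the control arrays at either time. The log2 fold changes of 1.03 (SE 0.34, 95% interval 0.35 to 1.72) and 1.22 (SE 0.34, 0.54 to 1.90) nevertheless missed the threshold, with limma adjusted p = 0.0744 at 2 h and 0.0634 at 48 h. Without the arrays numbered 1 they were 0.97 and 1.19 and both passed. Neither passed in any of the 8 fits that left out 1 array (limma adjusted p up to 0.236 and 0.249). Leaving out any other replicate number in every group did not make either pass. With the replicate number fitted as a block both were called (limma adjusted p = 0.00212 and 0.000765). PFKFB3 and EPAS1 were the 2 genes of 35 whose groups did not overlap at each time, where 11 percent of all probe sets did not overlap at 2 h and 7.29 percent at 48 h. PDK1, a kinase that inhibits pyruvate dehydrogenase, was at 0.23 and 0.26, and PFKFB4 at 0.05 and −0.01.

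The glycolytic enzymes gave no called difference. At 2 h 12 of 15 had a lower mean with IL-1β, with a median log2 fold change of −0.25 beside 0.04 for all probe sets. At 48 h 9 of 15 were lower, with a median of −0.02. Without the arrays numbered 1 the medians were −0.34 (13 of 15 lower) and 0.01 (7 of 15 lower). ENO1, the main enolase, had the lowest unadjusted p at 2 h, with a log2 fold change of −0.43 (SE 0.19, limma adjusted p = 0.280), and PFKP, the platelet-type phosphofructokinase, was at −0.45 and −0.43 at the 2 times.

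LDHA makes lactate from pyruvate and closes anaerobic glycolysis. It stood at 11.38, 10.30, 10.90 and 10.82 in control and 11.45, 10.53, 10.58 and 10.56 with IL-1β at 2 h. At 48 h the values were 10.93, 10.72, 10.39 and 10.55 and 11.11, 10.81, 10.75 and 10.72. In these 4 groups the array numbered 1 was the highest, and the other IL-1β arrays lay among the control arrays at 2 h. The log2 fold changes were −0.07 (95% interval −0.61 to 0.46) and 0.20 (−0.33 to 0.73). HK2, the inducible hexokinase, had 6.58, 6.51, 6.26 and 6.41 in control and 6.77, 5.87, 6.14 and 5.97 with IL-1β at 2 h. Its 48 h values were 6.66, 6.59, 5.98 and 6.18 and 6.69, 6.66, 5.93 and 6.13. The groups overlapped at both times, and the log2 fold changes were −0.25 (−0.65 to 0.15) and 0.00 (−0.40 to 0.40).

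Of the transporters, SLC2A1 had 8.15, 7.47, 7.65 and 7.51 in control and 9.58, 7.84, 8.27 and 7.65 with IL-1β at 2 h. At 48 h it had 8.18, 7.99, 7.01 and 7.91 and 9.01, 8.32, 8.01 and 7.98. At each time 2 of the 4 IL-1β arrays lay within the control range, and the array numbered 1 was the highest. The log2 fold changes of 0.64 (95% interval −0.17 to 1.45) and 0.55 (−0.26 to 1.36) did not pass. SLC2A3 was at −0.21 (−1.63 to 1.21) and −0.23 (−1.65 to 1.20), intervals that leave room for a rise or a fall of more than 2-fold. SLC16A3, which encodes the lactate exporter MCT4, was at 0.06 and −0.09.

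None of the 10 HIF targets was called with IL-1β. VEGFA, the main angiogenic growth factor, stood at 9.92, 8.34, 8.65 and 8.94 in control and 9.70, 8.22, 8.78 and 8.82 with IL-1β at 2 h. At 48 h it stood at 9.96, 9.40, 7.97 and 8.49 and 10.01, 9.27, 8.77 and 8.89. The groups overlapped almost wholly, with log2 fold changes of −0.09 (95% interval −0.92 to 0.75) and 0.28 (−0.56 to 1.11).

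The membrane-bound carbonic anhydrases, which control pH at the cell surface, had the lowest p-values among the targets. CA9 had 7.99, 6.27, 6.24 and 7.18 in control and 6.45, 5.65, 5.77 and 5.54 with IL-1β at 2 h, and the highest IL-1β array lay within the control range. Its log2 fold change of −1.06 (SE 0.36) did not pass (limma adjusted p = 0.0895), and at 48 h it was −0.37. At 2 h it passed in 2 of the 8 fits that left out 1 array, and its adjusted p reached 0.451 without the control array numbered 1. It was called there with a replicate block (limma adjusted p = 0.0433) and with array weights (limma adjusted p = 0.0237). The other alternatives that kept all arrays did not call it.

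CA12 went the other way. Its values at 48 h were 7.23, 3.89, 3.62 and 4.46 in control and 6.74, 7.04, 6.50 and 5.94 with IL-1β. The control array numbered 1 lay above all 4 IL-1β arrays, and the other 3 control arrays lay below all of them. The log2 fold change was 1.76 (SE 0.61, 95% interval 0.52 to 2.99, limma adjusted p = 0.217). Without that control array it was 2.57 (adjusted p = 0.0120), and without all arrays numbered 1 it was 2.51 (adjusted p = 0.00109). The log2 fold change missed the threshold in 7 of the 8 fits that left out 1 array. The limma adjusted p reached 0.515 without the control array numbered 2. With the replicate number fitted as a block CA12 was called at 48 h (limma adjusted p = 0.00644). The other alternatives that kept all arrays did not call it. At 2 h the log2 fold change was 0.50 (−0.74 to 1.74).

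The other targets lay between −0.63 (ADM, a vasodilator peptide) and 0.42 (BNIP3, a mitophagy receptor) at 2 h and between −0.32 (ADM) and 0.26 (BNIP3) at 48 h. NDRG1, a stress-response protein, was at −0.10 and −0.12, the mitophagy receptor BNIP3L at 0.17 and 0.08, and ANKRD37 at −0.27 and −0.31. KDM3A, a histone demethylase, was at 0.11 and −0.02, and MXI1, an antagonist of MYC, at 0.13 and −0.06. All of these intervals include 0.

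Each serum preparation was then set against IL-1β alone, which serves as the shared reference for all 3. At 2 h none of the 35 genes was called with AES, AES24h or ACS, where 0.0164, 0.0229 and 0.0262 percent of all probe sets were, nor in the mean of the 3 sera (0.0458 percent). At an unadjusted p under 0.05 the counts were 0, 2, 0 and 0 of 35, against 7.33, 5.28, 5.22 and 6.89 percent of all probe sets. The 2 genes were HK2 at 0.51 (SE 0.20, limma adjusted p = 0.801) and ANKRD37 at 0.57 (adjusted p = 0.933) with AES24h. Most differences were small and positive, with 31 of 35 genes higher in the mean of the sera and a median of 0.12 beside 0.02 for all probe sets. Of all probe sets 54.6 percent were positive there. The genes moved together within arrays, so such counts by sign are not counts of independent genes. In IL-1β alone at 2 h, 34 of 35 lay above their group mean in the array numbered 1 and 4 of 35 in that numbered 4.

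By role at 2 h, the medians in the mean of the sera were 0.07 for the enzymes (14 of 15 positive), 0.20 for the HIF pathway genes and 0.24 for the HIF targets (8 of 10 positive). Without the arrays numbered 1 the enzymes were at 0.13 (14 of 15 positive) and the targets at 0.29 (7 of 10). EPAS1 stood at 8.12, 6.77, 7.41 and 7.45 with AES, 8.27, 6.83, 7.14 and 7.32 with AES24h and 8.14, 6.68, 7.34 and 7.30 with ACS, each group overlapping IL-1β alone. Its log2 fold change in the mean of the sera was 0.36 (95% interval −0.29 to 1.00).

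The named genes with no called difference stood as follows at 2 h. SLC2A1 had 9.73, 8.22, 8.61 and 7.85 with AES, 9.70, 8.20, 8.58 and 8.76 with AES24h and 9.35, 7.97, 7.85 and 8.70 with ACS. VEGFA had 10.63, 9.05, 8.72 and 8.89 with AES, 10.49, 8.93, 8.84 and 9.54 with AES24h and 9.34, 9.17, 8.80 and 9.33 with ACS. In all 6 of these groups the array numbered 1 was highest, and every group overlapped IL-1β alone. The log2 fold changes in the mean of the sera were 0.29 (−0.37 to 0.95) for SLC2A1 and 0.43 (−0.25 to 1.11) for VEGFA.

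PFKFB3 had 10.26, 9.12, 8.27 and 9.00 with AES, 10.36, 8.88, 8.57 and 9.87 with AES24h and 9.29, 9.26, 8.66 and 9.36 with ACS at 2 h. LDHA had 11.60, 10.58, 10.48 and 10.54 with AES, 11.76, 10.43, 10.40 and 11.34 with AES24h and 11.02, 10.49, 10.32 and 10.92 with ACS. Both genes overlapped IL-1β alone in each serum group, with log2 fold changes of 0.34 (−0.22 to 0.90) and 0.04 (−0.39 to 0.48) in the mean of the sera. HK2 had 6.63, 6.40, 6.57 and 6.05 with AES, 6.87, 6.56, 6.82 and 6.54 with AES24h and 6.58, 6.51, 6.13 and 6.38 with ACS. HIF1A had 11.81, 11.52, 11.29 and 11.41 with AES, 11.86, 11.70, 11.42 and 11.61 with AES24h and 11.65, 11.47, 11.31 and 11.54 with ACS. HK2 was at 0.32 (−0.01 to 0.64) and HIF1A at 0.24 (−0.05 to 0.53) in the mean of the sera, and neither passed.

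At 48 h EPAS1 rose in the mean of the 3 sera, as 1 of 35 genes, where 0.733 percent of all probe sets were called. Its values were 8.98, 7.41, 8.13 and 8.63 with AES, 8.90, 7.50, 7.94 and 8.90 with AES24h and 9.06, 7.46, 8.05 and 9.08 with ACS. All 12 serum arrays (7.41 to 9.08, median 8.38) lay above all 4 arrays of IL-1β alone (6.42 to 7.08), which held for 0.723 percent of all probe sets in either direction. The log2 fold change was 1.56 (SE 0.32, 95% interval 0.91 to 2.20, limma adjusted p = 0.00784). It was called in 15 of the 16 fits that left out 1 array, and not without IL-1β replicate 2 (1.43, adjusted p = 0.0755). Without the arrays numbered 1 in every group it was 1.44 and passed (adjusted p = 0.0139). It did not pass without those numbered 3 (1.65, adjusted p = 0.111) or 4 (1.41, adjusted p = 0.260).

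In the fit without a replicate block no single serum passed for EPAS1 at 48 h, although each group lay wholly above IL-1β alone. Groups did not overlap for 4.82, 4.65 and 4.57 percent of all probe sets with AES, AES24h and ACS. The log2 fold changes were 1.51 with AES (SE 0.39, limma adjusted p = 0.0693), 1.53 with AES24h (0.10) and 1.63 with ACS (0.0615). In these comparisons 0 of 35 genes were called, with 0.442, 0.226 and 0.262 percent of all probe sets called, and at an unadjusted p under 0.05 there were 7, 4 and 5, against 10.6, 6.85 and 7.6 percent. The difference of the serum effect between 48 h and 2 h was 1.20 for EPAS1 (SE 0.45, 95% interval 0.28 to 2.11) and did not pass (limma adjusted p = 0.491). None of the 35 genes passed that test, in which 0.0491 percent of all probe sets were called and 5 of 35 genes had an unadjusted p under 0.05 against 7.08 percent. With the replicate number fitted as a block, EPAS1 was called in each serum at 48 h (limma adjusted p = 3.52e-05, 1.69e-05 and 1e-05). It was also called there for the difference between the times (limma adjusted p = 0.00896). What the number stands for is not given in the labels.

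Put in order, the group means of EPAS1 were 5.12 and 5.50 in control at 2 h and 48 h, 6.78 and 7.04 with IL-1β alone at 48 h and 2 h, 7.37, 7.39 and 7.44 with ACS, AES24h and AES at 2 h, and 8.29, 8.31 and 8.41 with AES, AES24h and ACS at 48 h. The steps from control at 48 h to IL-1β alone at 48 h (1.28) and from AES at 2 h to AES at 48 h (0.85) were larger than the pooled SD within groups (0.58). All other neighbours in this order differed by less than that SD. It describes single arrays, and the SE of a difference between such means was 0.39 in the fit without a replicate block. The array numbered 1 was the highest of its group in 9 of the 10 groups, and ACS at 48 h was the exception.

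**Figure D3:**
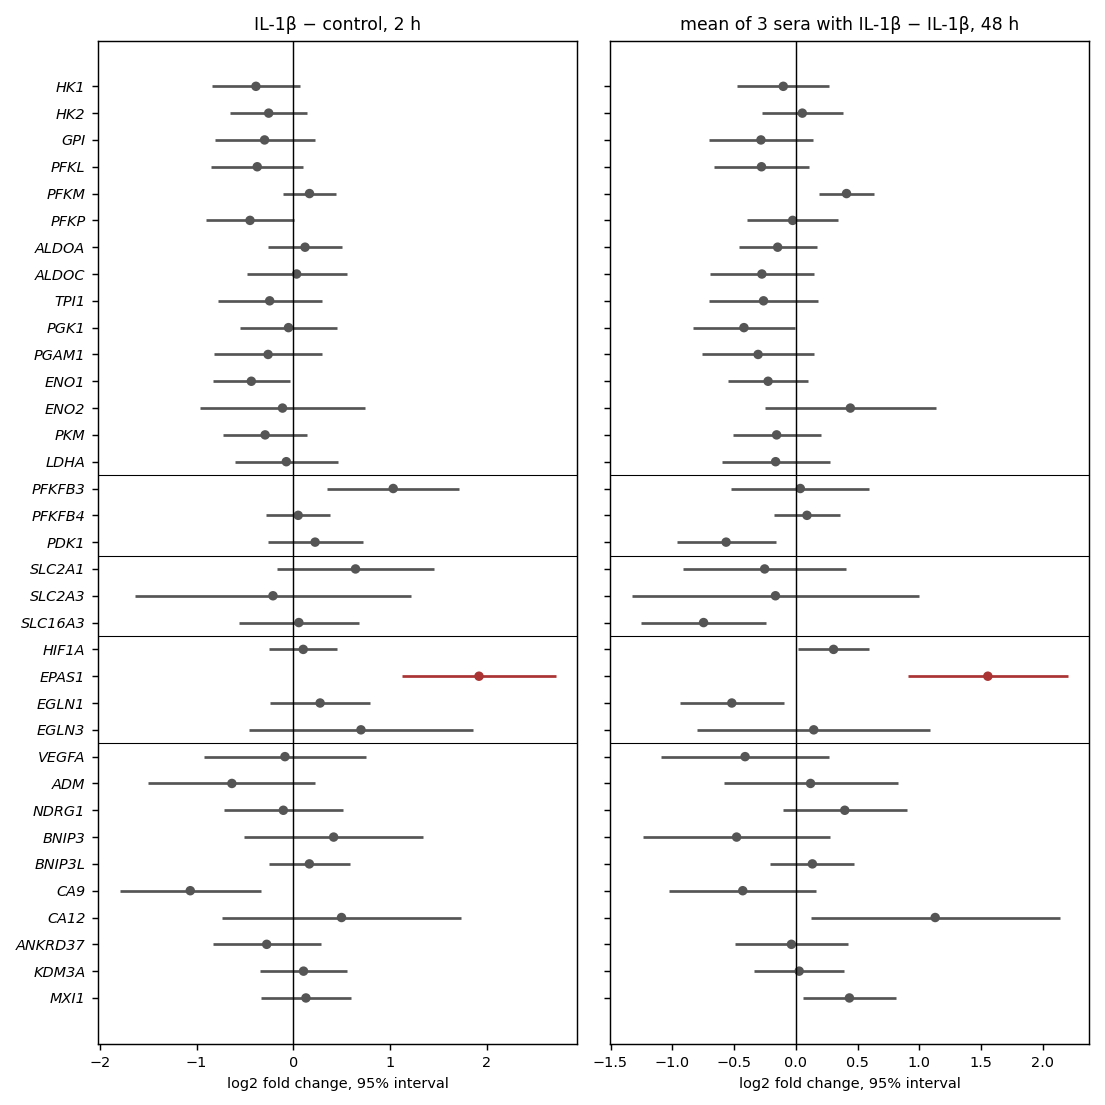
Log2 fold change with its 95% interval (horizontal axes) for each of the 35 genes, for IL-1β minus control at 2 h (left) and the mean of the 3 sera minus IL-1β alone at 48 h (right); red marks limma adjusted p under 0.05. EPAS1 is the only red gene in either panel, at 1.92 and 1.56, and SLC2A3, CA12 and EGLN3 have the widest intervals.

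The other HIF pathway genes at 48 h stayed below the threshold. HIF1A had 11.71, 10.76, 11.39 and 11.32 with AES, 11.97, 11.59, 11.40 and 11.72 with AES24h and 12.14, 11.30, 11.62 and 11.72 with ACS, each overlapping IL-1β alone. In the mean of the sera it was at 0.31 (95% interval 0.02 to 0.59, limma adjusted p = 0.542). EGLN1 was at −0.52 (−0.94 to −0.09, adjusted p = 0.412) and EGLN3 at 0.15 (−0.80 to 1.09).

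Of the glycolytic enzymes 12 of 15 were lower in the mean of the sera at 48 h, with a median of −0.16 beside −0.01 for all probe sets, and none was called. The median was −0.29 with AES (12 of 15 lower), −0.01 with AES24h (8 of 15) and −0.21 with ACS (13 of 15). AES arrays 2 and 4 at 48 h had the 2 narrowest value distributions of that group and high medians, and without them the AES median was −0.18 (12 of 15 lower). PGK1, the first ATP-producing enzyme of the pathway, was at −0.67 with AES (SE 0.25, limma adjusted p = 0.281), with its 4 arrays below all of IL-1β alone, and at −0.42 in the mean of the sera (adjusted p = 0.586).

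PFKM, the muscle-type phosphofructokinase, was 1 of the 3 enzymes with a higher mean in the sera, beside HK2 and ENO2. Its values at 48 h were 6.12, 5.93, 6.46 and 6.05 with IL-1β alone, 6.60, 6.43, 6.67 and 6.26 with AES, 6.61, 6.66, 6.45 and 6.81 with AES24h and 6.85, 6.55, 6.17 and 6.51 with ACS. The array numbered 3 of IL-1β alone, the highest of its group, lay within the serum range. The log2 fold changes were 0.35, 0.50 and 0.38 with AES, AES24h and ACS and 0.41 in their mean (SE 0.11, limma adjusted p = 0.0784). Without that array of IL-1β alone the log2 fold change was 0.52 and passed (adjusted p = 0.0350). It missed the threshold in 14 of the 16 fits that left out 1 array. The limma adjusted p reached 0.416 without IL-1β replicate 2. PFKM was called with a fixed or random replicate block (limma adjusted p = 0.0365 and 0.0434). It was also called after repeated quantile normalisation and with array weights (limma adjusted p = 0.0444 and 0.0234). The other alternatives that kept all arrays did not call it.

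LDHA at 48 h had 10.38, 10.36, 10.91 and 10.43 with AES, 11.17, 10.96, 10.69 and 10.51 with AES24h and 10.88, 10.68, 10.69 and 10.56 with ACS. HK2 had 6.39, 6.26, 6.74 and 6.13 with AES, 6.73, 6.18, 6.80 and 6.58 with AES24h and 6.64, 6.25, 5.93 and 6.26 with ACS. Both overlapped IL-1β alone in every serum group, with log2 fold changes in the mean of the sera of −0.16 (95% interval −0.60 to 0.27) and 0.05 (−0.27 to 0.38). In AES at 48 h LDHA was highest in the array numbered 3, not in that numbered 1. The remaining enzymes lay between −0.31 (PGAM1) and 0.44 (ENO2, the neuronal enolase) in the mean of the sera.

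Among regulators and transporters at 48 h, PDK1 and SLC16A3 had intervals below 0 without passing. PDK1 was at −0.56 in the mean of the sera (95% interval −0.97 to −0.16, limma adjusted p = 0.272), and SLC16A3 at −0.75 (−1.25 to −0.24, adjusted p = 0.221). PFKFB3 had 8.84, 8.18, 8.72 and 8.58 with AES, 9.08, 8.53, 8.66 and 8.68 with AES24h and 9.35, 8.28, 8.25 and 8.24 with ACS. Each group overlapped IL-1β alone, with a log2 fold change of 0.04 (−0.52 to 0.59).

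SLC2A1 had 8.27, 7.55, 8.03 and 7.63 with AES, 9.07, 8.13, 7.97 and 8.21 with AES24h and 8.85, 7.82, 7.58 and 7.80 with ACS at 48 h, a log2 fold change of −0.25 (95% interval −0.91 to 0.41) in the mean of the sera. SLC2A3 was at −0.16 (−1.33 to 1.00). Its value in the array numbered 1 was 6.61 with AES at 48 h, 8.59 with AES24h and 8.40 with ACS, so that the AES group was the one in which the array numbered 1 was not highest.

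Of the HIF targets, CA12 and MXI1 had intervals above 0 in the mean of the sera at 48 h. CA12 had 8.52, 6.73, 6.89 and 7.40 with AES, 9.15, 7.99, 6.80 and 8.11 with AES24h and 8.73, 7.39, 6.26 and 8.26 with ACS, and each group overlapped IL-1β alone. Its log2 fold change was 1.13 (95% interval 0.12 to 2.14, limma adjusted p = 0.503). MXI1 was at 0.43 (0.06 to 0.81, adjusted p = 0.481). VEGFA had 8.97, 8.98, 9.22 and 8.60 with AES, 9.62, 8.99, 8.97 and 8.51 with AES24h and 8.92, 8.69, 8.44 and 7.96 with ACS, a log2 fold change of −0.41 (−1.09 to 0.27). NDRG1 was at 0.40, BNIP3 at −0.48, CA9 at −0.43 and ADM at 0.12, and all 4 intervals included 0.

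**Figure D4:**
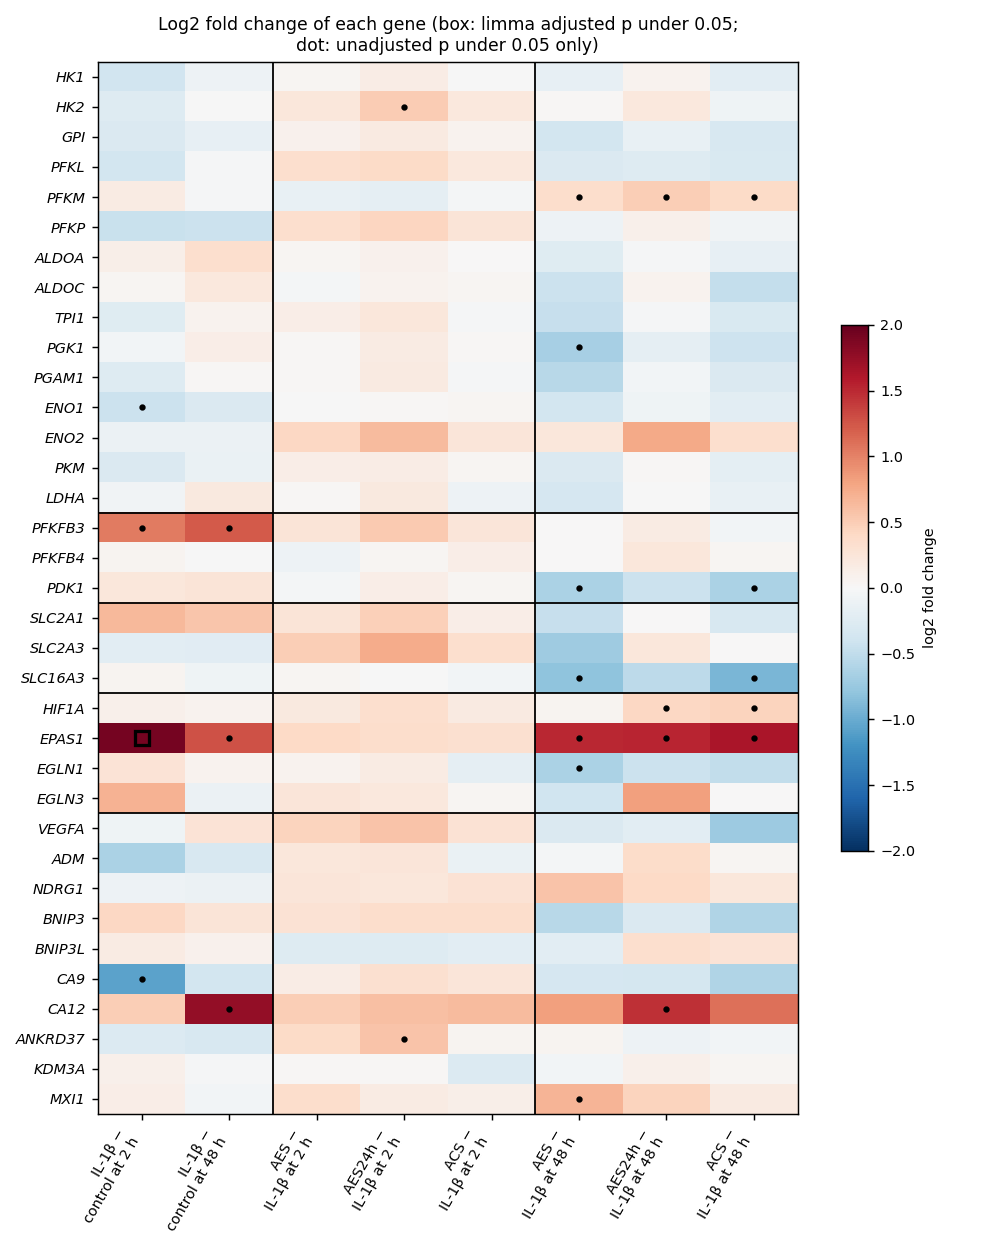
Log2 fold change (colour, red higher and blue lower, from −2 to 2) of the 35 genes (vertical, by role) in IL-1β minus control and each serum group minus IL-1β alone at 2 h and 48 h (horizontal); a box marks limma adjusted p under 0.05 and a dot an unadjusted p under 0.05 only. The only box is EPAS1 with IL-1β at 2 h (1.92), and EPAS1 carries a dot in each serum at 48 h.

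The preparations were also set against each other, in 6 comparisons. None of the 35 genes was called in any of them, where 0.00327 percent of all probe sets were called for AES24h against AES at 2 h and 0 percent in the other 5. At an unadjusted p under 0.05 the counts were 0 of 35 in each comparison at 2 h, against 4.04, 4.3 and 3.92 percent of all probe sets. At 48 h they were 3 for AES24h against AES, 3 for ACS against AES and 1 for ACS against AES24h, against 11.7, 10.7 and 2.47 percent. The intervals still allow sizeable differences. That of EPAS1 for ACS against AES at 48 h was −0.67 to 0.92 around 0.12, and that of VEGFA was −1.28 to 0.39 around −0.44. AES24h at 48 h had the higher enzyme means. All 15 enzymes were higher with AES24h than with AES (median 0.28, beside −0.04 for all probe sets) and lower with ACS than with AES24h (median −0.22, beside 0.00). With ACS against AES 11 of 15 were higher (median 0.09, beside −0.03). Bright probe sets moved the same way against AES, but hardly moved for ACS against AES24h. The upper 25% by mean signal had a median of 0.12 for AES24h against AES and 0.11 for ACS against AES. For ACS against AES24h it was −0.01. After repeated quantile normalisation the median of the 35 genes for AES24h against AES went from 0.25 to 0.16. For ACS against AES it went from 0.08 to 0.02, and for ACS against AES24h from −0.22 to −0.20. ALDOC, the brain-type aldolase, had the lowest value of the enzymes with ACS against AES24h, at −0.55 (limma adjusted p = 1).

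The 48 h harvest was compared with the 2 h harvest within each treatment. In control and in IL-1β alone 0 of 35 genes were called, with 0.00327 and 0.00654 percent of all probe sets called and 1 gene each (MXI1) at an unadjusted p under 0.05 in limma, against 5.23 and 6.98 percent. With AES and ACS 0 of 35 were called as well, where 1.65 and 0.916 percent of all probe sets were, with 11 and 8 genes at an unadjusted p under 0.05 against 14.4 and 11.9 percent. With AES24h 1 gene, PFKM, rose, where 1.12 percent of all probe sets were called, and 7 genes had an unadjusted p under 0.05 against 11.4 percent. PFKM had 6.27, 5.99, 5.99 and 5.83 at 2 h and 6.61, 6.66, 6.45 and 6.81 at 48 h, with no overlap between the groups, which held for 5.93 percent of all probe sets. The log2 fold change was 0.61 (SE 0.14, 95% interval 0.34 to 0.89, limma adjusted p = 0.0159), and it missed the threshold in 3 of the 8 fits that left out 1 array (adjusted p up to 0.0702, without replicate 4 of the 48 h group). Without the arrays numbered 1 in every group it was 0.70 and passed (adjusted p = 0.0169), and it did not pass without those numbered 2, 3 or 4. Of the enzymes 14 of 15 were lower at 48 h with AES (median −0.33), and 9 of 15 without the arrays numbered 1 (median −0.06).

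Several genes had the same sign of change with time in all 3 serum groups without passing in the fit without a replicate block. EPAS1 was 0.85, 0.92 and 1.05 higher at 48 h with AES, AES24h and ACS, and 0.38 higher in control and 0.26 lower (log2 fold change −0.26) in IL-1β alone. MXI1 was higher in all 5 treatments, by 0.69 in control, 0.50 in IL-1β alone, 0.83 with AES (limma adjusted p = 0.0528), 0.78 with AES24h and 0.57 with ACS. PDK1 had log2 fold changes of −0.78, −0.75 and −0.87 in the serum groups, beside −0.23 in control and −0.19 in IL-1β alone. BNIP3 was at −1.03 with AES, −0.85 with AES24h and −1.15 with ACS. With the replicate number fitted as a block, EPAS1 was called in each serum (limma adjusted p = 0.00781, 0.00486 and 0.00165). PDK1 was called in each as well (limma adjusted p = 0.0142, 0.0254 and 0.00897). In that fit MXI1 was called with AES and AES24h only (limma adjusted p = 0.0153 and 0.0303). BNIP3 was called with ACS only (limma adjusted p = 0.0465).

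Genes around the glycolytic core and further HIF genes, listed by pathway, were measured on the same arrays. The shares of all probe sets called in the same comparisons stand beside the counts. Of the 18 other glycolysis genes 1 fell with IL-1β at 2 h (4.52 percent) and 0 were called at 48 h (1.26 percent). It was LDHB, the heart-type lactate dehydrogenase subunit, at −0.66 (SE 0.16, limma adjusted p = 0.00873). LDHB was the 1 gene of the 18 that rose from 2 h to 48 h with AES (0.69), AES24h (0.80) and ACS (0.69), where 1.65, 1.12 and 0.916 percent of all probe sets were called. Of 21 genes of pyruvate entry and the citric acid cycle 1 fell with IL-1β at 48 h (1.26 percent). It was PDK4, a kinase that inhibits pyruvate dehydrogenase, at −2.63 (SE 0.46, adjusted p = 0.000692). With AES, 2 of the 21 rose from 2 h to 48 h (1.65 percent), IDH2 at 0.58 and OGDH at 0.56, both enzymes of the cycle. None of 5 pentose phosphate genes was called in any comparison.

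Of the 28 other HIF pathway genes and targets 2 rose and 4 fell with IL-1β at 2 h, where 4.52 percent of all probe sets were called. The collagen cross-linking enzyme LOXL2 fell by 1.17, the glycoprotein hormone STC2 fell by 1.20, and the transferrin receptor TFRC rose by 1.28. At 48 h 1 rose, TFRC, by 1.79, and 0 fell (1.26 percent). In the mean of the sera at 48 h 1 rose and 3 fell (0.733 percent). The gene that rose was CITED2, a competitor of HIF-1α for its coactivator, by 0.58. Among those that fell, STC2 fell by 1.64 and the collagen prolyl hydroxylase P4HA2 fell by 0.52. The log2 fold change of STC2 was −1.74 with AES, −1.68 with AES24h and −1.50 with ACS, and each passed. With AES 2 of the 28 fell, with AES24h and ACS 1 each, and none rose (0.442, 0.226 and 0.262 percent).

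From 2 h to 48 h 1 of the 28 rose and 4 fell with AES (1.65 percent), 2 rose and 0 fell with AES24h (1.12 percent), and 1 rose and 1 fell with ACS (0.916 percent). DDIT4, an inhibitor of mTORC1 signalling, rose by 1.69 with AES, 1.74 with AES24h and 1.24 with ACS. In IL-1β alone its log2 fold change was 1.07, with no overlap between the times, and did not pass (limma adjusted p = 0.155). STC2 fell by 1.12 with AES, and P4HA2 fell by 0.64 with AES and by 0.65 with ACS. The haem oxygenase HMOX1 rose by 1.69 with AES24h.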

How the data were processed

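RNA of pellet cultures was measured on 40 Affymetrix Equine Gene 1.0 ST arrays. The deposited values are on the log2 scale, summarised by the authors with RMA in Affymetrix Expression Console, per the submitters' processing notes, which name no versions. RMA subtracts background, equalises the distributions of all arrays and averages probes, so a shift common to most genes is removed and low signals are compressed. The number of arrays, 4 per group, limits the precision. The platform annotation listed 17132 of 30559 probe sets, 16789 with 1 symbol, 343 with several and 13427 not listed. Each of the 35 genes had 1 probe set, so no choice between probe sets arose.

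From these values 10 group means were fitted on all 40 arrays with limma 3.58.1 (R 4.3.3), with an intensity trend (30 residual degrees of freedom), and 23 comparisons were adjusted over all probe sets by Benjamini-Hochberg at 0.05. Intervals are 95% and not adjusted. The code was tested on simulated data.

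The genes, the lists and the rule for naming were chosen with earlier results of these data known. Values in every array are given for genes called in a comparison of IL-1β or serum, for VEGFA, LDHA, SLC2A1, HK2, PFKFB3 and HIF1A, and for genes called elsewhere. Of the wider lists at most 3 called genes are named per comparison, by the moderated statistic. Values by array of CA9 and CA12, and some of SLC2A3, were added after they were seen. Alternatives were a replicate block, a filter on dim probe sets, repeated quantile normalisation, array weights, no trend, the spread of the compared groups alone, and each array left out in turn. Leaving out 1 replicate number in every group, or AES arrays 2 and 4 at 48 h, was added after seeing the data.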

Additional observations from a re-analysis of the deposited data

Results flagged for a closer look

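Among the 7 genes given in every array for IL-1β and serum, 5 groups of 4 held an array far from the other 3, by a gap past Dixon's 95% critical value for 4 values. LDHA was high at 11.45 in the array numbered 1 of IL-1β at 2 h, at 11.60 in the array numbered 1 of AES at 2 h, and at 10.91 in the array numbered 3 of AES at 48 h. PFKFB3 was low at 8.66 in the array numbered 3 of ACS at 2 h and high at 9.35 in the array numbered 1 of ACS at 48 h. SLC2A3 passed the same limit in 3 groups, each time in the array numbered 1, at 8.62 with IL-1β at 2 h, 9.18 with AES at 2 h and 8.40 with ACS at 48 h. Chance gives about 1 such group in 20. Over all 35 genes and 10 groups, 19 of 350 combinations passed this limit, a share near that 1 in 20. Of these 16 were on the high side, and 13 of the 16 were arrays numbered 1.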

How the results depend on the processing

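Counts of the 35 genes called are compared with 1 for IL-1β at 2 h, for the mean of the sera at 48 h and for 48 h against 2 h in AES24h, and with 0 in the other 20 comparisons. Of the 20 values of named genes recomputed under each alternative none changed sign. That set does not hold every value printed: without the arrays numbered 1, 6 of 10 HIF targets were positive with IL-1β at 48 h, against 4 of 10 with them. With a replicate block the counts were 3 for IL-1β at 2 h and 3 at 48 h, 1 each for AES, AES24h and ACS at 48 h, 2 for the mean of the sera at 48 h, 5, 4 and 3 for 48 h against 2 h in AES, AES24h and ACS, and 1 (EPAS1) for the difference of the serum effect between times. EPAS1 was the gene called in each serum at 48 h, with limma adjusted p = 3.52e-05, 1.69e-05 and 1e-05 for AES, AES24h and ACS, and it was called with IL-1β at 48 h (3.75e-05). The numbers did not pair the arrays by the rule used (98 of 180 same-numbered pairs correlated over 0.1, and 0 of 19 comparisons had every pair over it), although 36 of 40 arrays correlated best with their own number, a hint from the data and not from the design. As a random replicate block the counts were 2 and 2 for IL-1β, 1 each (EPAS1, limma adjusted p = 0.0104, 0.0116 and 0.0068) for the sera at 48 h, 2 for their mean, and 2, 2 and 1 over time in AES, AES24h and ACS. With the upper 60% of probe sets (18336) they were 2 and 1 for IL-1β, and 1 each for AES and ACS at 48 h and over time; fewer tests entered the adjustment. After repeated quantile normalisation they were 1 each for AES and ACS at 48 h, 2 for the mean of the sera at 48 h and 2 over time in AES. Array weights gave 3 and 1 for IL-1β, 1 for each serum at 48 h, 2 for their mean and 1 over time in ACS. With the spread of the compared groups alone there were 2 and 1 for IL-1β and 0 over time in AES24h (PFKM, limma adjusted p = 0.172). The cause of these changes was not tested. Shares of all probe sets called under these alternatives are not given here. Whether other genes gained calls alike therefore cannot be read from these counts. Dropping the intensity trend moved 0 of 23 counts. Leaving out 1 array in turn gave 1 to 2 for IL-1β at 2 h, 0 to 1 at 48 h, 0 to 1 for AES and ACS and 0 for AES24h at 48 h, 0 to 2 for the mean of the sera at 48 h and 0 to 1 over time in AES, AES24h and ACS. Leaving out 1 replicate number in every group gave 1 to 2 for IL-1β at 2 h, 0 to 3 at 48 h, 0 to 1 for ACS (EPAS1, without number 2) and for the mean of the sera at 48 h, and 0 to 1 over time in AES (PDK1, without number 3) and AES24h. Without AES arrays 2 and 4 at 48 h the mean of the sera gave 2 (EPAS1 and PFKM). Each gene has 1 probe set, so the planned use of another probe set gave no value.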
